A study of Mus musculus with 2 samples.

Results

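The nutrient carriers of the solute carrier (Slc) families were examined in Treg, the regulatory T cells that hold immune responses in check, of 2 Stat3 genotypes. Members were the genes whose symbol places them in Slc1, Slc2, Slc3, Slc7, Slc16, Slc38 or Slc43 and that had at least 1 probe set paired with no other gene. They numbered 60 of 18194 genes named in this way and were read by 125 of 45101 probe sets. Each gene is given by its brightest probe set, taken on the mean of both arrays. Females of 6 to 8 weeks gave the spleens and lymph nodes from which Treg were sorted. Both genotypes are labelled Foxp3<Cre/wtS>, so both carried a Cre recombinase at a Foxp3 allele. The control array came from mice with 1 loxP-flanked Stat3 allele (fl/wt) and the other array from mice with both alleles flanked (fl/fl). Cre driven from Foxp3, an X-linked gene, acts where the X that carries it is in use, and neither the selection of such cells in the sort nor the number of mice per sample is in the labels. There was 1 array per genotype, so no difference below has a replicate check and no p-value is given.

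Solute carriers of these families move the fuels of the T cell across the plasma membrane and the lysosomal membrane. Slc2 genes encode facilitative hexose carriers. Slc7 light chains take up amino acids, several of them only when bound to a heavy chain of the Slc3 family. Slc1, Slc38 and Slc43 proteins move glutamate or neutral amino acids such as glutamine, apart from Slc43a3, a purine carrier. Slc16 proteins carry lactate, pyruvate and related monocarboxylates, and aromatic amino acids. In activated T cells, uptake of glucose, leucine and glutamine feeds growth through the kinase mTORC1.

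Values are deposited log2 signals of probe sets, and a value under log2 5 was taken as too dim to order. Of the 60 carriers, 29 reached log2 5 in at least 1 array, and all 29 did so in both. That is 48.3% of the carriers, beside 53.7% of all genes and 51.1% of the 274 other solute carrier genes. The remaining 31 lay under log2 5 in both arrays, 25 of them with a mean under log2 3. The dimmest carrier above the limit was Slc16a7 (mean 5.25) and the brightest below it Slc16a13 (mean 4.45). None of the measured carriers differed by 1.5-fold, which is near the 0.645% of the 9774 genes at or above log2 5 that did. The median size of the difference was 0.079 over the measured carriers and 0.053 over all measured genes. Stat3, the targeted gene, read 12.00 (fl/wt) and 11.99 (fl/fl), 10.65 and 10.63, and 10.45 and 10.37 in its 3 probe sets above log2 5, and 2.26 and 2.36 in the last. The sources used here do not place these probe sets relative to the flanked exons, so they do not check the labels, on which the directions below rest.

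**Figure D1:**
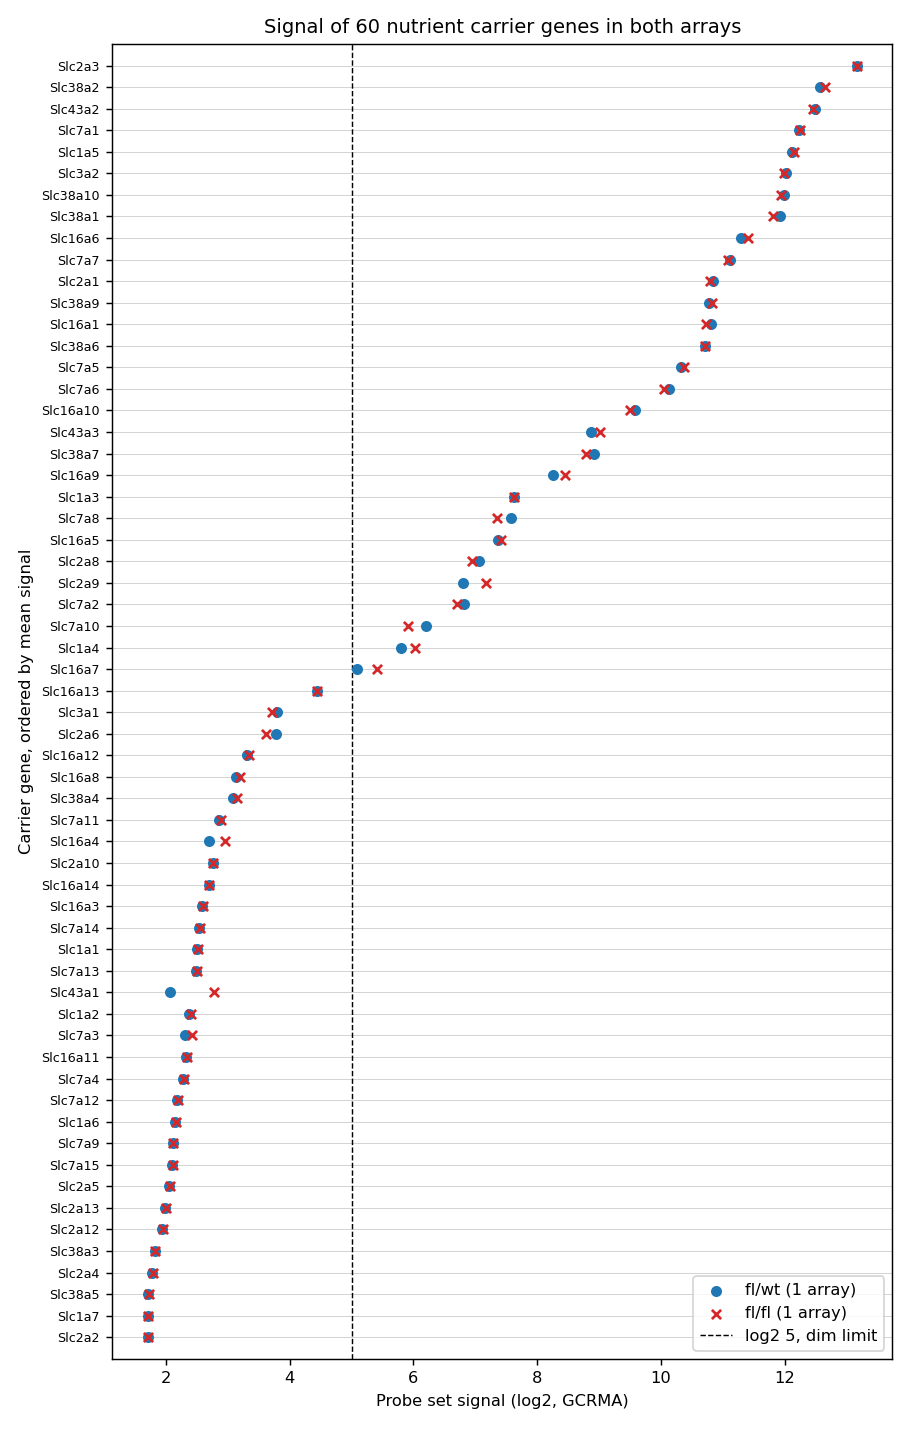
Log2 signal (horizontal axis) of all 60 carrier genes, 1 row per gene in order of mean signal. Circles stand for the fl/wt array, crosses for the fl/fl array and the dashed line for log2 5. The circle and the cross of a gene nearly coincide in most rows, and 31 genes sit left of the line in both arrays.

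Among hexose carriers, Slc2a3 gave the brightest signal of all 60 genes. This high-affinity glucose carrier read 13.16 (fl/wt) and 13.17 (fl/fl), and fl/fl minus fl/wt was 0.0060. Slc2a1, the basal glucose carrier of most cells, read 10.83 and 10.80, a difference of -0.037. So neither gene differed by as much as 0.04 in its brightest probe set. The bright Slc2a3 signal came from probe sets whose suffix marks shared probes (12.09 and 12.16 in the next), and its probe set without such a suffix was dim at 1.89 and 1.91. Slc2a8, an intracellular hexose carrier, read 7.05 and 6.95. Slc2a9, which carries urate, read 6.81 (fl/wt) and 7.18 (fl/fl), and its difference of 0.37, or 1.29-fold, had the greatest size of the 29. A dimmer probe set of Slc2a9 went the other way, from 5.26 to 5.18. Of the 11 Slc2 genes, 4 were measured. The lysosomal Slc2a6 (3.78 and 3.62), the insulin-responsive Slc2a4 (1.77 and 1.79), Slc2a2, Slc2a5, Slc2a10, Slc2a12 and Slc2a13 lay under log2 5.

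The heavy chain that holds amino acid exchangers at the cell surface was bright in both arrays. Slc3a2, which encodes this CD98 heavy chain, read 12.02 with fl/wt and 11.99 with fl/fl, which differ by -0.031. The other heavy chain, Slc3a1, known from kidney and gut, was under the limit at 3.80 and 3.72. Light chains that pair with Slc3a2 were measured for Slc7a5, Slc7a6, Slc7a7, Slc7a8 and Slc7a10, and not for the cystine carrier Slc7a11 (2.86 and 2.89). Slc7a5, the light chain for leucine and other large neutral amino acids, read 10.33 and 10.37. Slc7a7 and Slc7a6, which exchange cationic for neutral amino acids, read 11.12 and 11.09, and 10.12 and 10.05. These 3 light chains differed by 0.044, -0.034 and -0.079. Slc7a8, a further carrier of neutral amino acids, read 7.57 (fl/wt) and 7.35 (fl/fl), a difference of -0.22. Slc7a10, a carrier of small neutral amino acids, read 6.20 and 5.91, a difference of -0.30. The dim light chains were thus the ones further apart between arrays.

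The Slc7 carriers of cationic amino acids work without a heavy chain. Slc7a1, a carrier of arginine and lysine, read 12.23 with fl/wt and 12.24 with fl/fl, which differ by 0.014. Slc7a2, its inducible relative, read 6.82 and 6.71, a difference of -0.11. In all, 7 of the 15 Slc7 genes were measured, 2 higher and 5 lower in fl/fl, with a median difference of -0.079. Slc7a3, Slc7a4, Slc7a9, Slc7a11, Slc7a12, Slc7a13, Slc7a14 and Slc7a15 were under log2 5.

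Glutamine carriers were among the brightest members. Slc1a5, which exchanges glutamine for other neutral amino acids, read 12.12 (fl/wt) and 12.14 (fl/fl). The sodium-coupled carriers Slc38a2 and Slc38a1 read 12.56 and 12.65, and 11.92 and 11.81, differences of 0.089 and -0.11. In their brightest probe sets these 3 genes lay within 0.12 between arrays and did not share a direction. The other measured probe sets of Slc38a2 differed by 0.0057 and, at 7.11 and 7.41, by 0.29. That of Slc38a1 read 9.28 and 9.34, a difference of 0.066, opposite in direction to its brightest. Slc1a4, a carrier of alanine and serine, read 5.79 and 6.03, a difference of 0.23. Slc1a3, a glutamate carrier known from glia, read 7.62 and 7.63 in a probe set whose suffix marks shared probes. Its next probe set read 5.55 (fl/wt) and 4.55 (fl/fl), a bound of -0.55 with the dim value set to 5 and -0.995 without that step, and the one after it read 4.12 and 4.36. The level and the difference of Slc1a3 therefore depended on the probe set. Slc1a1, Slc1a2, Slc1a6 and Slc1a7 were under log2 5.

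Carriers at the lysosome and the less studied Slc38 members were also measured. Slc38a9, a lysosomal protein through which arginine signals to mTORC1, read 10.78 (fl/wt) and 10.82 (fl/fl). Slc38a7, which exports glutamine from lysosomes, read 8.92 and 8.78. Slc38a10 and Slc38a6 read 11.99 and 11.94, and 10.71 in both arrays. None of these 4 differed by more than 0.15 in its brightest probe set, while the 6 measured probe sets of Slc38a9 ran from -0.34 to 0.30. Slc38a3, Slc38a4 and Slc38a5 were under log2 5. In the Slc43 family, Slc43a2, a facilitative carrier of essential neutral amino acids, read 12.49 and 12.45, and the purine carrier Slc43a3 read 8.88 and 9.02. Slc43a1, a relative of Slc43a2, was dim at 2.07 and 2.77, where values have no order.

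Lactate and other monocarboxylates were represented by 6 measured Slc16 genes of 13. Slc16a1, a proton-coupled carrier of lactate and pyruvate, read 10.81 (fl/wt) and 10.73 (fl/fl). Slc16a3, the lactate exporter of highly glycolytic cells, was under the limit at 2.59 and 2.61. Slc16a7, a high-affinity pyruvate carrier, was the dimmest measured member at 5.10 and 5.41, a difference of 0.31. So only the first of these 3 proton-coupled carriers gave a bright signal here. Slc16a6, a carrier linked to ketone bodies, read 11.28 and 11.41, a difference of 0.13. Slc16a10, which carries aromatic amino acids, read 9.58 and 9.50. Slc16a9 and Slc16a5 read 8.26 and 8.45, and 7.37 and 7.42. Of the 6, 4 were higher and 2 lower in fl/fl, with a median of 0.092. Slc16a4, Slc16a8, Slc16a11, Slc16a12, Slc16a13 and Slc16a14 were under log2 5.

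In order of mean signal, the measured carriers ran Slc2a3, Slc38a2, Slc43a2, Slc7a1, Slc1a5, Slc3a2, Slc38a10, Slc38a1, Slc16a6, Slc7a7, Slc2a1, Slc38a9, Slc16a1, Slc38a6, Slc7a5 and Slc7a6, these 16 all at or above log2 10. Next came Slc16a10, Slc43a3, Slc38a7, Slc16a9, Slc1a3, Slc7a8 and Slc16a5, between log2 7 and 10. Slc2a8, Slc2a9, Slc7a2, Slc7a10, Slc1a4 and Slc16a7 had means under log2 7. Probe sets differ in how strongly they bind, so this is an order of signals and not of RNA amounts. Neighbours in the order lay a median of 0.23 apart, and 7 of the 28 neighbouring pairs stood in opposite order in the 2 arrays. Among these were Slc2a1 and Slc38a9, Slc38a9 and Slc16a1, and Slc7a10 and Slc1a4. Probe sets of a single carrier spanned more than these gaps: over the 13 carriers with several measured probe sets the span had a median of 2.38 and reached 6.78 for Slc38a10.

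Promoters were searched for 2 motifs, the palindrome TTCNNNGAA that STAT dimers bind and the E-box CACGTG that Myc and its relatives bind. The search covered the 250 bases before each start in RefSeq's mouse promoters (GRCm38.p6), where 20 of the 29 measured carriers had an entry, with 27 promoters among them. Both motifs read the same on either strand and do not overlap each other. The STAT palindrome stood in 3 of the 27 promoters (11.1%), beside 7.02% of all 32851 promoters, and the E-box in 2 of 27 (7.41%), beside 6.02%. In the 28 promoters of carriers under log2 5 the palindrome stood in 1 (3.57%) and the E-box in 6 (21.4%). The windows below show the matches in Slc7a1, Slc38a9, Slc1a3 and Slc16a1, so that the arginine carrier, the lysosomal arginine sensor, the glutamate carrier and the lactate carrier can be read beside their values. Capitals mark the motif and the rest is flanking sequence, written along the gene's strand.
Slc7a1 (chr5:148392933-148392981, minus strand): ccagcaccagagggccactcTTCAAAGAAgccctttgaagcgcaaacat
Slc38a9 (chr13:112660670-112660718, plus strand): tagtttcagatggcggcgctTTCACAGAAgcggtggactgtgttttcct
Slc1a3 (chr15:8710875-8710923, minus strand): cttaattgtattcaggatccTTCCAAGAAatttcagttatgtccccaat
Slc16a1 (chr3:104638444-104638489, plus strand): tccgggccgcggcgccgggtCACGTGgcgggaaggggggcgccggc
In their brightest probe sets the 3 genes with the STAT palindrome differed by 0.014 (Slc7a1), 0.045 (Slc38a9) and 0.0045 (Slc1a3) between arrays. With values under 5 set to 5, their measured probe sets ran from -0.092 to 0.014, -0.34 to 0.30 and -0.55 to 0.0045. The E-box of Slc16a1 lies beside a difference of -0.078, and that of Slc38a7, the other match, beside -0.14. A match describes letters in a window and is not a measured binding site.

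Between genotypes, the 29 measured carriers differed by -0.30 to 0.37 on the log2 scale, with 15 higher and 14 lower in fl/fl. Over all measured genes 47.5% were higher and 52.5% lower. The median difference of the carriers was 0.0045, that of all measured genes -0.0045 and that of the 140 measured other solute carriers -0.0056. None of the carriers and none of those other solute carriers reached 1.5-fold, beside 0.645% of all measured genes. A difference of at least 0.25 was seen for 3 carriers, which is 10.3% beside 5.79% of all measured genes. Slc2a9 and Slc16a7 were higher, beside 2.57% of all genes, and Slc7a10 was lower, beside 3.22%. All 3 were among the 6 carriers with a mean under log2 7, where 25.3% of all genes (262 of 1036) differed by at least 0.25.

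**Figure D2:**
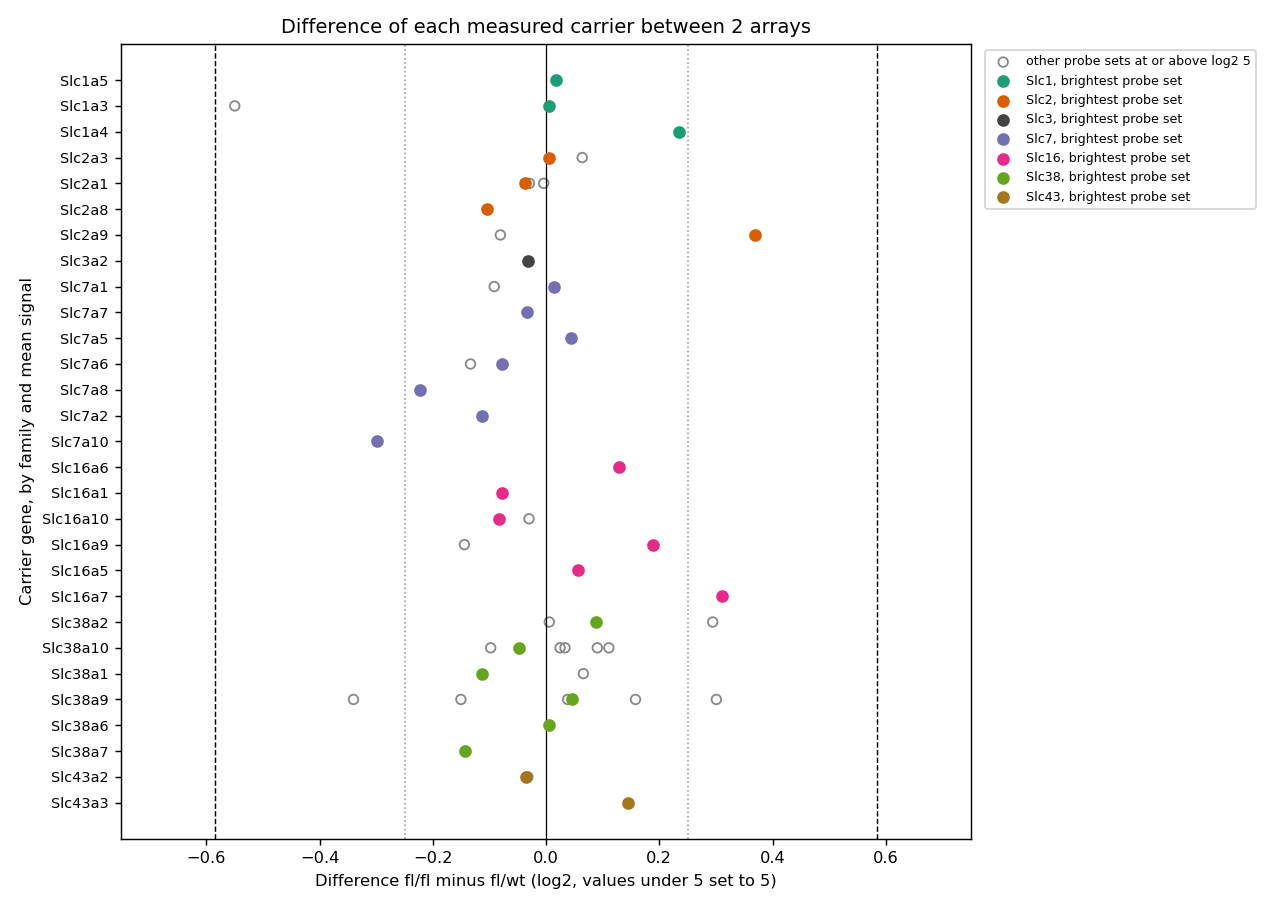
Difference fl/fl minus fl/wt on the log2 scale (horizontal axis) for the 29 measured carriers, by family. Filled points are the brightest probe set of a gene and open points its other probe sets at or above log2 5; dotted lines mark 0.25 and dashed lines 1.5-fold either way. No point passes 1.5-fold, and the open point furthest left is the second Slc1a3 probe set at -0.55, a lower bound in size.

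The size of the differences followed the signal. The 10 carriers with a mean at or above log2 11 differed by -0.11 to 0.13, with a median size of 0.035, beside 0.032 for all genes of that level. The 7 carriers from 9 to 11 differed by -0.084 to 0.045. From 7 to 9 the 6 carriers ran from -0.22 to 0.19, and the 6 under 7 from -0.30 to 0.37 with a median size of 0.27, beside 0.13 for all genes of that level. As a description of these 2 arrays, each carrier was set beside the 500 genes nearest in level, and 28 of 29 lay in the central 95% of their differences. The exception, Slc16a6, at 0.13, stood at the edge of a range of -0.13 to 0.13, with 28 of its 500 neighbours at least as far apart. For Slc2a9 (0.37) the range was -0.43 to 0.40.

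**Figure D3:**
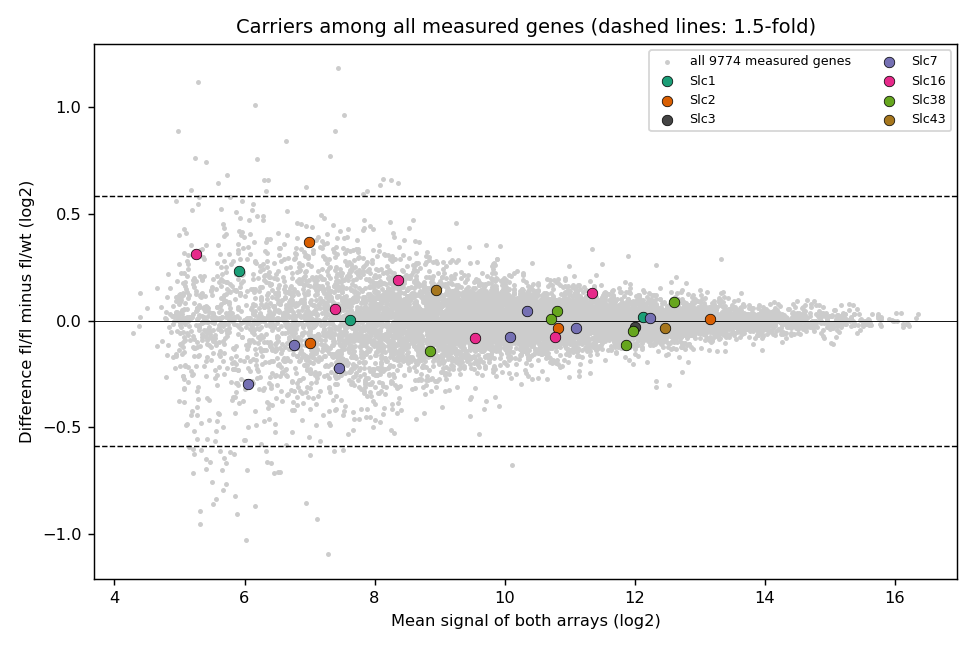
Difference fl/fl minus fl/wt (vertical axis, log2) against mean signal of both arrays (horizontal axis, log2). Grey points are all 9774 measured genes, coloured points the 29 carriers by family, dashed lines 1.5-fold. The spread of grey points narrows as signal grows, and no coloured point lies beyond a dashed line.

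Several carriers were read by more than 1 measured probe set. Of 13 such genes, 6 had all their probe sets on the same side of 0 and 7 did not. Slc2a1, Slc2a3, Slc38a2, Slc43a2, Slc7a6 and Slc16a10 were the 6. In Slc38a9 the 6 probe sets ran from -0.34 to 0.30, around the 0.045 of the brightest, and in Slc38a10 the 6 ran from -0.098 to 0.11. Slc16a9 had 0.19 in its brightest and -0.14 in its other probe set. Probe sets of the same gene read the same RNA and are not replicates. Besides Slc2a9, the carriers that differed by 0.22 or more in size were Slc16a7, Slc7a10, Slc1a4 and Slc7a8, and each of these had a single measured probe set.

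Genes that act with the carriers were taken from 6 lists. Of 112 genes listed, 103 had a probe set of a single gene and 93 were measured. None of the 93 reached 1.5-fold, which is near the 0.645% of all measured genes that did. Of 5 measured chaperones and regulators of carriers, 1 was higher and 4 were lower (median -0.029). Bsg, the basigin chaperone that brings Slc16a1 to the membrane, read 11.16 (fl/wt) and 11.13 (fl/fl). Emb, the embigin partner of Slc16a7, read 12.30 and 12.33, and Txnip, which drives glucose carriers off the surface, 13.71 and 13.69. The arrestin-like Arrdc4 differed by -0.13, with 0.16 in its other probe set, and the ubiquitin ligase Nedd4l by -0.071, with 0.16 in its other.

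Of 26 measured genes of amino acid sensing and mTORC1, 10 were higher and 16 were lower (median -0.0054). A difference of at least 0.25 was seen for 3 members (11.5%), beside 5.79% of all measured genes. The 3 were lower in fl/fl, beside 3.22% of all genes. By level, 25.3% of all genes under log2 7 passed 0.25 either way, 12.5% of those from 7 to 9 and 1.48% of those from 9 to 11. The members were Tfeb, the lysosome transcription factor, at 8.16 and 7.71 (-0.45), Ddit4, an inhibitor of mTORC1, at 10.12 and 9.72 (-0.40), and the leucine sensor Sesn2 at 6.15 and 5.87 (-0.28). Akt1s1, an mTORC1 inhibitor, followed with -0.25 (7.84 and 7.59), just inside that size. Each of these 4 was read by 1 measured probe set. The kinase gene Mtor itself, chosen after its value was seen, differed by 0.041.

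Transcription factors of carrier genes and of the amino acid stress response split into 5 higher and 8 lower (median -0.046). Myc read 11.01 (fl/wt) and 10.94 (fl/fl), Hif1a 12.85 and 12.88, and Atf4, the stress response factor, 12.06 and 12.01. The other probe set of Atf4 differed by 0.17 and that of Hif1a by -0.023. Eif2ak4, the kinase that senses uncharged tRNA, differed by -0.23, the stress factor Ddit3 by 0.12, Max by -0.11 and Mlxip by -0.071. Ddit3 differed by -0.050 in its other measured probe set. None of the 13 measured members reached 0.25, beside 5.79% of all measured genes.

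Enzymes that use the transported amino acids split into 5 higher and 11 lower (median -0.017). Bcat1, which transaminates leucine and its relatives, read 8.25 and 8.54, a difference of 0.29. Ass1, of arginine synthesis, differed by -0.24, Got1 by -0.15 and Psph, of serine synthesis, by -0.15. Glycolytic and lactate enzymes split into 11 higher and 6 lower (median 0.016). Hk2, the inducible hexokinase, read 7.81 and 7.87, while Hk3 differed by -0.16, Pfkm by 0.13, Pfkfb3 by 0.13 and Hk1 by 0.095. The other measured probe set of Hk3 went the other way, by 0.084. Amino acid and peptide carriers of other families split into 5 higher and 11 lower (median -0.030). Slc25a44, a mitochondrial carrier of branched-chain amino acids, read 7.61 and 7.19, a difference of -0.42, and its other measured probe set differed by -0.25. Slc25a15 (-0.19), Slc25a13 (-0.17) and Slc36a1 (-0.14) followed. Slc25a44 was 1 of 16 measured members of its list to reach 0.25, and Bcat1 1 of 16 of its own. That is 6.25% each, beside 5.79% of all measured genes. Both had a mean from log2 7 to 9, where 12.5% of all genes differed by at least 0.25.

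**Figure D4:**
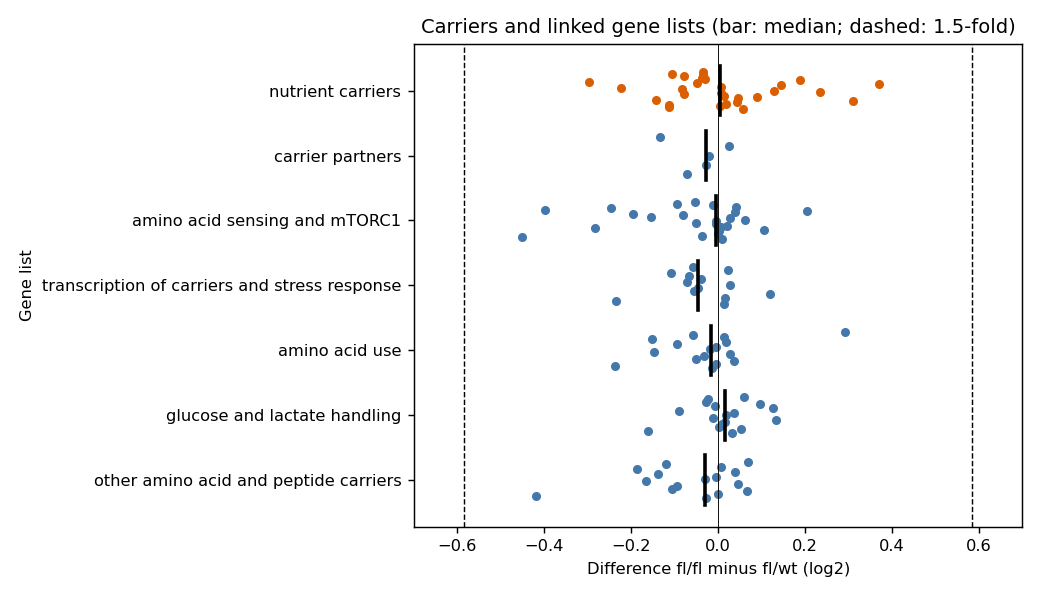
Difference fl/fl minus fl/wt (horizontal axis, log2) of measured genes in the carrier set and in 6 linked lists, 1 row per list. Points are genes, their vertical scatter within a row carries no value, black bars are medians and dashed lines 1.5-fold either way. Medians lie between -0.046 and 0.016, and no point passes a dashed line.

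Marker genes bear on which cells the carrier signals came from. Of 10 T cell and Treg markers 9 were measured, among them Cd3e (13.32 and 13.40) and Ctla4 (14.91 and 14.87), while the Foxp3 probe set was under log2 5 (4.09 and 3.52). Of 12 myeloid markers 11 were measured, with Csf1r at 13.99 and 14.00, C1qa at 13.83 in both and Vcam1 at 14.87 and 14.86, and Itgam under log2 5. The summed myeloid signal was 16.75 (fl/wt) and 16.73 (fl/fl) on the log2 scale, and that of T cell and Treg markers 16.99 and 16.96. Myeloid members differed by -0.087 to 0.053. B cell markers, 5 measured of 7 listed, summed to 11.08 and 10.99, and red cell markers, 2 of 8, to 8.13 and 7.55. Sums were higher in fl/fl for 4 further lists with few measured genes. CD8 and NK markers, 2 measured of 5, summed to 9.44 and 9.58. Of these 2, Cd8b1 read 8.54 and 8.81 and Cd8a 8.29 and 8.26. Dendritic markers, 1 of 5, summed to 7.14 and 7.26, and endothelial and stromal markers, 1 of 6, to 8.10 and 8.18. Platelet markers, 1 of 3, summed to 6.23 and 6.38. The part of such cells in the level of any carrier was not tested. In sorted bulk RNA, fewer cells of a type and less RNA per cell cannot be told apart.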

How the data were processed

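RNA of 2 sorted Treg samples, 1 per genotype, was labelled and hybridised to Affymetrix arrays, per the labels. The deposited values are log2 signals of 45101 probe sets, made with GCRMA per the submitters' processing notes. The sources used here give neither its version nor its settings. Many dim values lay close between arrays: of the 31 carriers under log2 5 in both, 24 differed by at most 0.05, though Slc43a1 differed by 0.71. Over the 18191 probe sets of single genes under log2 5 in both arrays, the signed median difference was 0.015. That is a shift and not a spread. The number of arrays limits the precision. Genes were named from the platform annotation, and all 60 carrier symbols stood unchanged in RefSeq.

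Differences are fl/fl minus fl/wt, with values under 5 set to 5 and genes under 5 in both arrays left out (Python 3.11.15, pandas 2.3.3). Every measured carrier was named. Of each linked list, the 4 members furthest from 0 were named, plus Bsg, Emb, Txnip, Myc, Hif1a, Hk2 and Atf4. Mtor was added after its value was seen. The calculation was tested on simulated data with shifts larger than any measured carrier showed. That checks the arithmetic and does not bear on differences of the sizes seen here. Members and lists were chosen with earlier results of these data known, and the motif search was added after the data were seen. Alternatives were 2 other floors, no floor, 32 added on the linear scale, 2 other ways to choose probe sets, 3 scalings and a 2-fold threshold.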

Additional observations from a re-analysis of the deposited data

How the results depend on the processing

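No paired analysis was possible because each genotype had 1 array. The count of carriers at 1.5-fold or more was 0 under all alternatives run except with no filter and no floor, where it was 1, Slc43a1, whose values lie under log2 5. The count at 0.25 or more (3 carriers) was 1 with a floor of log2 6, 1 after adding 32 to linear signals and 5 with no filter and no floor. It was 2 with the median of all probe sets and 4 without shared-suffix probe sets. With no filter and no floor, 44 of 60 carriers were higher, beside 15 of 29 in the main setting; the median over all genes was then 0.013. With the median of all probe sets, 25 carriers were measured, 11 higher and 14 lower. Without shared-suffix probe sets, meaning those ending in _s_at, _x_at or _a_at, 25 were measured, since Slc2a3, Slc3a2, Slc7a7 and Slc1a4 dropped out. The brightest probe sets of Slc3a2, Slc7a7 and Slc1a4 end in _a_at. Their loss does not show that they read other genes. The median of the carriers ran from -0.015 with the median of probe sets to 0.014 with no filter and no floor, and was -0.013 with a floor of 6. The direction of 7 carriers depended on how probe sets were taken. The median of probe sets was computed within each array and included dim ones. With it, Slc7a1 was -0.092, Slc38a10 0.033, Slc7a7 0.048, Slc38a9 -0.23 and Slc16a9 -0.14. For Slc38a9 this median fell on different probe sets in the 2 arrays (8.45 in fl/wt, 8.22 in fl/fl). The other probe set of Slc7a7 lay under log2 5 (4.77 and 4.90). Without shared suffixes Slc38a1 was 0.066 and Slc1a3 -0.55. Slc2a9 was 0.14 as the median of probe sets and Slc1a4 0.026 with a floor of 6. Slc1a5 was 0.21 as the median of probe sets. Of 252 carrier values under alternatives, 245 moved by less than 0.17 and 7 by more. The 0.17 compares fl/fl minus fl/wt between the 2 brightest measured probe sets of a gene. It is the SD of that gap over 4228 genes. The median of carrier partners was 0.0023 without shared suffixes, and that of other solute carriers 0.014 with no filter and no floor; no other list median changed sign. The cause of these changes was not tested. Centring, quantile normalisation and loess changed none of the 3 counts.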
